A study of Mus musculus with 4 samples.

Results

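The mitochondrial small ribosomal subunit is built from a 12S rRNA made in the mitochondrion and from proteins that are encoded in the nucleus, translated in the cytosol and imported. The mRNAs of these proteins were chosen by name from the deposited table: every protein-coding gene called Mrps with a number and at most 1 letter, and Dap3, Ptcd3, Chchd1 and Aurkaip1, whose proteins are subunits without an Mrps name. The rule used no measured value, and it found 32 of the 15746 genes listed, on 14 chromosomes. Mrps34, another small subunit gene, is not analysed here.

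RNA was sequenced from hearts of adult wild-type mice, in 2 libraries of the mitochondrial fraction and 2 of the rest fraction. The rest fraction was the pellet of cell debris that a slow spin of the homogenate left, and a faster spin of the supernatant gave the mitochondria. Only the mitochondria were described as treated with digitonin, a detergent for membranes rich in cholesterol, and with RNase A, and an adjusted fragmentation time is given for their libraries alone, so these steps cannot be told apart from the fraction. The labels do not say that the libraries came from separate animals, and p-values then measure only the spread between these libraries, which may be technical.

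As background, the small subunit binds mRNAs made in the mitochondrion and holds the decoding centre, where codons meet tRNAs. All proteins translated there in mammals belong to the respiratory chain and ATP synthase, on which the beating heart draws. Some of its proteins have bacterial relatives, and others were added in the mitochondrial lineage. The names of 3 members are misleading: MRPS18A and MRPS30 sit in the large subunit, and MRPS36 is part of the alpha-ketoglutarate dehydrogenase complex.

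Several of these genes have processed copies in the genome that differ from the parent at few bases, and reads that the authors could place on 1 gene only were counted there. Few bases separate the mRNA of 3 members from listed copies, and the stretches below were chosen where each pair differs most. Each stretch is 75 bases of the coding sequence from GRCm38 and GENCODE M21, 5′ to 3′ on the strand of the gene, and capitals mark the bases that differ. Mrps21 lies at chr3:95862634-95871519 on the minus strand, and its copy Gm6181 at chr7:52755465-52755728 on the plus strand was 97.3% identical over 261 coding bases. In bases 59 to 133 of the coding sequence, counted from the first coding base, the parent and the copy differed by G71A, C75A, G96T, G119A and T120G.
Mrps21: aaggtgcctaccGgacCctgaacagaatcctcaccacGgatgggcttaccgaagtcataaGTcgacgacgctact
Gm6181: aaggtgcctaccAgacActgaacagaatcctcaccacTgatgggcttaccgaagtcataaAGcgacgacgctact
Mrps33 lies at chr6:39801804-39810988 on the minus strand, and Gm5776 at chr7:54412158-54412478 on the minus strand differed from it by G171A alone over 318 coding bases.
Mrps33: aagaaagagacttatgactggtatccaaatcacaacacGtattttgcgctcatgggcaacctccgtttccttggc
Gm5776: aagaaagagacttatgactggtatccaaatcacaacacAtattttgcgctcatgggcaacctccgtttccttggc
Mrps36 lies at chr13:100735955-100744659 on the minus strand, and Mrps36-ps1 at chr17:53866715-53867020 on the minus strand differed from it by A76C and C128T over 306 coding bases.
Mrps36: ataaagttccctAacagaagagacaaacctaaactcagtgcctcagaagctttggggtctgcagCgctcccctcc
Mrps36-ps1: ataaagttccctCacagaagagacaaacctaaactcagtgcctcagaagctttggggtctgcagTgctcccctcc

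The values, called normalized counts, are reads per gene after division by a library's size factor and rounding, which brings the median ratio of all libraries to the same level. One read stood for 3.87 (mitochondrial replicate 1), 2.55 (mitochondrial replicate 2), 0.264 (rest replicate 1) and 0.365 (rest replicate 2) normalized counts, while approximately 23500000 to 47400000 reads on genes lay behind each library. The tested members therefore rested on medians of approximately 28 and 31.5 reads on the mitochondrial side but 165 and 102.5 on the rest side, and a gene with 3 reads would be listed at 11.6, 7.65, 0.793 and 1.10. Such limits reflect counting error alone. The mitochondrial chromosome supplied 95.5% ± 2.86 (SD, n = 2) of the mitochondrial fraction's total and 65.4% ± 3.04 (SD, n = 2) of the rest fraction's.

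Relative to the scaling by size factors, the small subunit mRNAs were mostly higher in the mitochondrial fraction, by a median of 1.02 on the log2 scale or 2.03-fold, while scaling to the library total reversed this and gave a median of -2.88 for the members and -3.93 for all genes. Of the 32 members, 30 reached 10 normalized counts in 2 or more libraries and were tested. The limma test of log2(normalized count + 1), adjusted by Benjamini-Hochberg over 12150 genes, called 5 members higher, namely Mrps21, Chchd1, Mrps25, Mrps15 and Aurkaip1, where 2.16% of all genes tested were called higher. It called 0 members lower, where 1.39% of all genes were called lower. At an unadjusted p under 0.05, 19 members were higher, as were 14.1% of all genes tested, and 0 members were lower, against 16.2% of all genes. The fold changes of members ranged from -0.11 to 2.31, and 29 of 30 were above 0, beside a median of -0.14 over all genes tested. In 26 of 30 members both mitochondrial libraries exceeded both rest libraries, as they did in 27.7% of all genes tested. In 0 members both lay below, against 33.4% of all genes. Scaling to the total without the mitochondrial chromosome gave a median of 0.18, against -0.98 for all genes. It left 20 of 30 members above 0 and only Mrps21 and Chchd1 called. Of all genes, 15.4% were then above 0 and 1.06% were called higher. With any 1 of the 4 libraries left out, 1 fraction rests on 1 library, so the calls depend on all 4 libraries. The median of the members then stayed between 0.93 and 1.19, beside -0.14 to -0.06 for all genes tested.

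**Figure D1:**
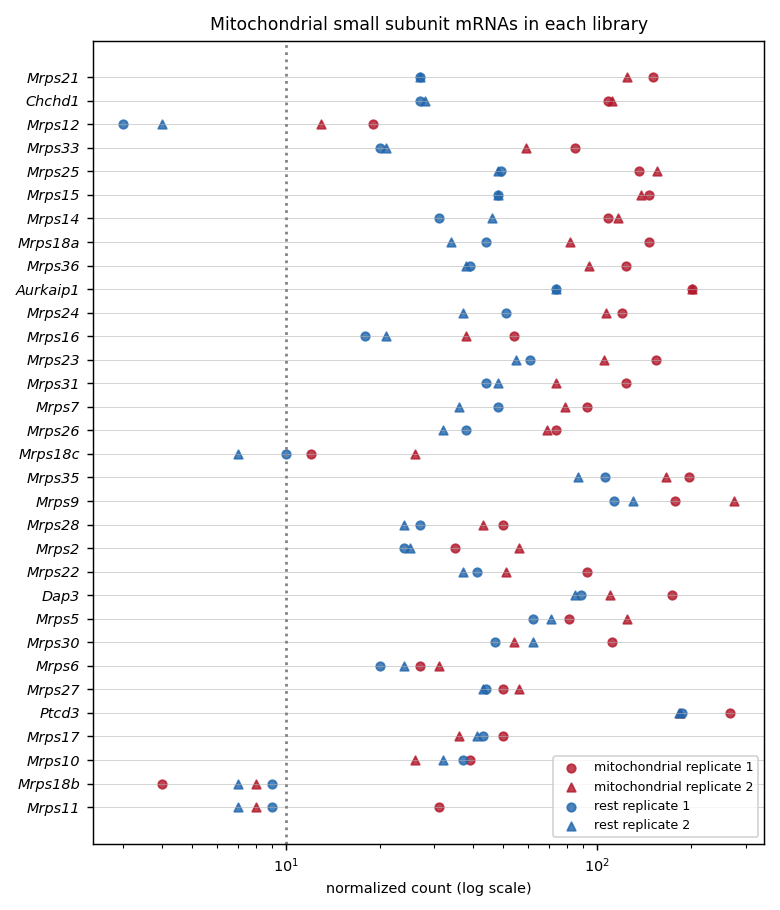
Normalized counts (log scale) of the 32 small subunit mRNAs in each of the 4 libraries, ordered by log2 fold change with the 2 untested members at the bottom. Red marks the mitochondrial and blue the rest libraries, circles replicate 1 and triangles replicate 2, and the dotted line is the minimum of 10. Under the deposited scaling, red lies to the right of blue in 26 of the 30 tested members, and scaling to the library total reverses the direction.

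Summed over all 32 members, these mRNAs made up 0.149% and 0.154% of the normalized counts on nuclear protein-coding genes in the mitochondrial libraries. They made up 0.0741% and 0.0715% in the rest libraries. The groups did not overlap, and the mean share was 2.08 times as large in the mitochondrial fraction, a ratio within nuclear mRNAs that does not depend on the size factors. The large subunit mRNAs had a ratio of 2.20 and the cytosolic small subunit mRNAs a ratio of 3.08. With Mrps18a, Mrps30 and Mrps36 left out, the counts of the other 29 members per large subunit count were 0.590 and 0.603 on the mitochondrial side against 0.633 and 0.642 on the rest side.

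Of the proteins with bacterial relatives, 16 had an mRNA in the table and 15 were tested. Mrps21 and Mrps15 were called higher and none lower by limma, against 2.16% and 1.39% of all genes, and the median was 1.00. At an unadjusted p under 0.05, 9 were higher and 0 lower, against 14.1% and 16.2% of all genes. Mrps21, a small subunit protein related to bacterial S21, had mitochondrial values of 151 and 125 normalized counts and 27 in both rest libraries. Both mitochondrial libraries lay far above the rest libraries, and its fold change of 2.31 (SE 0.236, adjusted p = 0.0427) was the largest among the members tested. Leaving out 1 library moved it between 2.17 and 2.44, with an adjusted p between 0.0523 and 0.526. Mrps15, a relative of bacterial S15 that binds rRNA, had 147 and 138 against 48 and 48. Its replicates were close in both fractions, and it rose by 1.55 (SE 0.203, adjusted p = 0.0427).

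Mrps12, which belongs to the decoding region, had 19 and 13 normalized counts against 3 and 4. The groups were apart, but these mitochondrial values rest on approximately 5 reads each, and the fold change of 1.90 did not pass the test (SE 0.533, adjusted p = 0.101). Mrps12 passed the filter only through its mitochondrial libraries, as did Mrps18c. Mrps14, a member of the subunit's head, had 108 and 117 against 31 and 46, which gave 1.55 with an adjusted p of 0.0565. Mrps9, another protein of the head, had 178 and 275 against 113 and 130. All mitochondrial values were above the rest values while the mitochondrial replicates themselves differed, and 0.86 did not pass (SE 0.275, adjusted p = 0.125).

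At the other end of the conserved proteins, Mrps17, a relative of an rRNA-binding bacterial protein, had 50 and 36 against 43 and 41. The rest values lay between the mitochondrial ones, and the fold change was 0.02 (SE 0.289, adjusted p = 0.974, 95% interval -0.74 to 0.77). Mrps10 had 39 and 26 against 37 and 32, again with overlapping groups, and its -0.11 was the only negative fold change among the members tested (SE 0.332, adjusted p = 0.844). Mrps6 had 27 and 31 against 20 and 24. These groups were apart by a few normalized counts, and 0.39 did not pass (SE 0.314, adjusted p = 0.447). Without mitochondrial replicate 1 or rest replicate 2, Mrps17 had -0.22 and -0.018, and without mitochondrial replicate 2, Mrps10 had 0.18. The other conserved members tested, Mrps24, Mrps16, Mrps7, Mrps28, Mrps2 and Mrps5, had fold changes from 0.59 to 1.36, none past the test.

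Of the proteins specific to mitochondria, 13 had a listed mRNA and 12 were tested. Chchd1, Mrps25 and Aurkaip1 were called higher and none lower by limma, against 2.16% and 1.39% of all genes, and the median was 1.03. At an unadjusted p under 0.05, 8 were higher and 0 lower, against 14.1% and 16.2% of all genes. Chchd1, a small protein with a twin cysteine motif, had mitochondrial values of 108 and 112 normalized counts against 27 and 28 in the rest fraction. Replicates differed little next to the distance between fractions, and it rose by 1.96 (SE 0.227, adjusted p = 0.0427). Aurkaip1, which sits near the decoding centre and is also known for binding Aurora kinase A, had 201 and 202 against 74 and 74. It had the closest mitochondrial replicates of the 5 members called, and rose by 1.43 (SE 0.184, adjusted p = 0.0427).

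Mrps25, at chr6:92169525-92184033 on the minus strand, had 136 and 156 against 49 and 48. The groups were far apart, and it rose by 1.57 (SE 0.211, adjusted p = 0.0441). Of its 6576 exon bases, 4590 overlap exons of Nr2c2 on the opposite strand, a gene for a nuclear receptor. Nr2c2 itself had 66 and 69 against 128 and 122, the opposite direction, with a fold change of -0.88 (adjusted p = 0.0700). The libraries were made with a stranded kit, but the sources used here do not give whether strand was used in counting. Without strand, reads over these bases would overlap both genes, and the authors excluded reads on several genes.

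Mrps33 had 85 and 59 normalized counts against 20 and 21. The groups were apart, and 1.74 did not pass (SE 0.306, adjusted p = 0.0549). Dap3, a GTP-binding protein first known from cell death signalling, had 174 and 110 against 89 and 85. Mitochondrial replicate 1 stood higher than the other 3 libraries, and 0.66 did not pass (SE 0.286, adjusted p = 0.198). Ptcd3, a pentatricopeptide repeat protein near the mRNA entry of the subunit, had 267 and 184 against 187 and 183. Mitochondrial replicate 2 lay among the rest libraries, so the groups overlapped, and 0.26 did not pass (SE 0.242, adjusted p = 0.503) and became -0.0077 without mitochondrial replicate 1. Mrps27, a further pentatricopeptide repeat protein, had 50 and 56 against 44 and 43, with 0.28 (SE 0.242, adjusted p = 0.476). Mrps23, Mrps31, Mrps26, Mrps35 and Mrps22 had fold changes from 0.81 to 1.13, none past the test, and their groups did not overlap.

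Among the members whose proteins work outside the small subunit, none was called by limma in either direction. Of all genes tested, 2.16% were called higher and 1.39% lower. At an unadjusted p under 0.05, 2 of 3 members were higher and 0 lower, against 14.1% and 16.2% of all genes. Mrps18a had 147 and 82 normalized counts against 44 and 34. The groups were apart although the mitochondrial replicates differed, and 1.48 did not pass (SE 0.366, adjusted p = 0.0802). Mrps36 had 124 and 94 against 39 and 38, and 1.46 did not pass (SE 0.251, adjusted p = 0.0544). Mrps30 had 112 and 54 against 47 and 62. Mitochondrial replicate 2 lay between both rest libraries, and 0.52 did not pass (SE 0.421, adjusted p = 0.445).

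Of the 3 Mrps18 paralogs, Mrps18a was highest in the rest fraction, with 44 and 34 normalized counts. Per kilobase of the principal mRNA, the 3 paralogs did not overlap in the rest libraries. Their means there were 44.1 for Mrps18a, 13.3 for Mrps18c and 7.41 for Mrps18b. Mrps18c, the small subunit form related to bacterial S18, had 12 and 26 against 10 and 7, with 1.00 (SE 0.549, adjusted p = 0.286). Mrps18b, which occupies a separate place in the small subunit, had 4 and 8 against 9 and 7 and was not tested. Approximately 1 and 3 reads lay behind its mitochondrial values, so no difference was detectable at this depth. Mrps11, which lies in the platform of the subunit, was the other untested member, with 31 and 8 against 9 and 7, where only mitochondrial replicate 1 stood out.

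**Figure D2:**
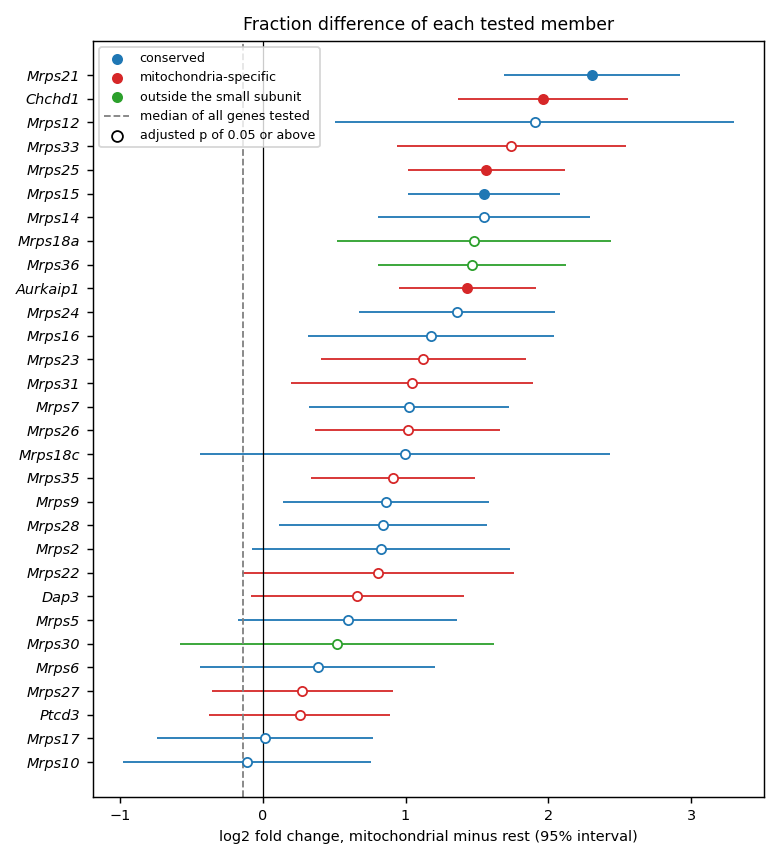
Log2 fold change, mitochondrial minus rest, of the 30 tested members with its 95% interval from limma (n = 2 libraries each). Colours give the role, filled points an adjusted p under 0.05, and the dashed line the median of all genes tested at -0.14. The 5 filled points lie between 1.43 and 2.31 under the deposited scaling, and scaling to the library total turns all of them below 0.

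Levels of different genes were compared as normalized counts per kilobase of the principal mRNA. In the rest fraction the mean level ran over a 17.7-fold range around a median of 23.4. Mrps9 was highest with 79.7 and 91.7 in the rest libraries, followed by Ptcd3 with 72.5 and 70.9 and Aurkaip1 with 63.8 in both, and these 3 did not overlap. Mrps12 was lowest at a mean of 4.85, and Mrps18b and Mrps11 followed at 7.41 and 7.58 and differed by less than their spread. In the mitochondrial fraction Mrps21 led with a mean of 283, above Chchd1 with 179 and Aurkaip1 with 174, a pair that lay closer together than the replicates of Chchd1. Mrps21 had rank 4 in the rest fraction, and Ptcd3 went from rank 2 to rank 10. Across the 32 members the levels of both fractions had a Spearman rho of 0.90, a description over genes that share the same 4 libraries and the same lengths.

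**Figure D3:**
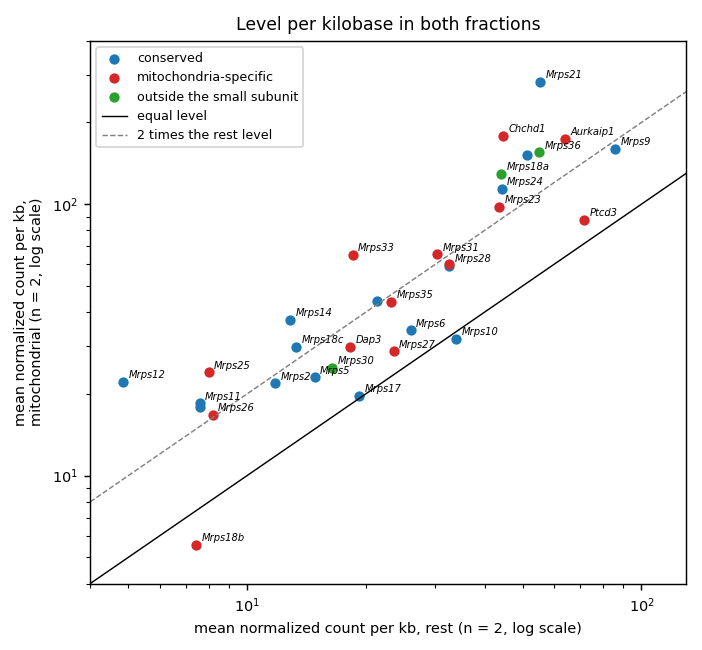
Mean normalized count per kilobase of principal mRNA in the rest (x) and mitochondrial (y) libraries, both log axes, n = 2 each, for all 32 members coloured by role, with crowded points (Mrps7, Mrps15, Mrps16, Mrps22) unnamed. The solid line marks equal levels and the dashed line 2 times the rest level under the deposited scaling (scaling to the library total would place most members under the solid line). Mrps21, Chchd1 and Mrps12 lie well above the dashed line, and Ptcd3, Mrps10 and Mrps17 near the solid one.

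The members are short mRNAs, with a median of 1375 bases among those tested, where the 10597 nuclear protein-coding genes tested with a known length had a median of 3268. Among these genes the log2 fold change fell with mRNA length, with a Spearman rho of -0.43 across genes, and the 30 members had a rho of -0.39, or -0.59 with coding length. Genes are not independent replicates, and these values are descriptions. Of the 523 genes with mRNAs up to 1000 bases, 20.5% were called higher with a median of 1.17, and the 10 members in this class had a median of 1.47 with 3 called. From 1000 to 2000 bases the medians were 0.40 for all genes and 1.03 for 9 members. From 2000 to 4000 bases they were -0.11 for all genes and 0.67 for 6 members, and above 4000 bases -0.47 for all genes and 0.91 for 5 members. In all, 25 of 30 members lay above the median of their length class, a count that is relative and was not tested. Among the called members, Mrps21 with 488 bases, Chchd1 with 616 and Mrps15 with 937 were in the shortest class, and Mrps25 with 6073 bases was in the longest.

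**Figure D4:**
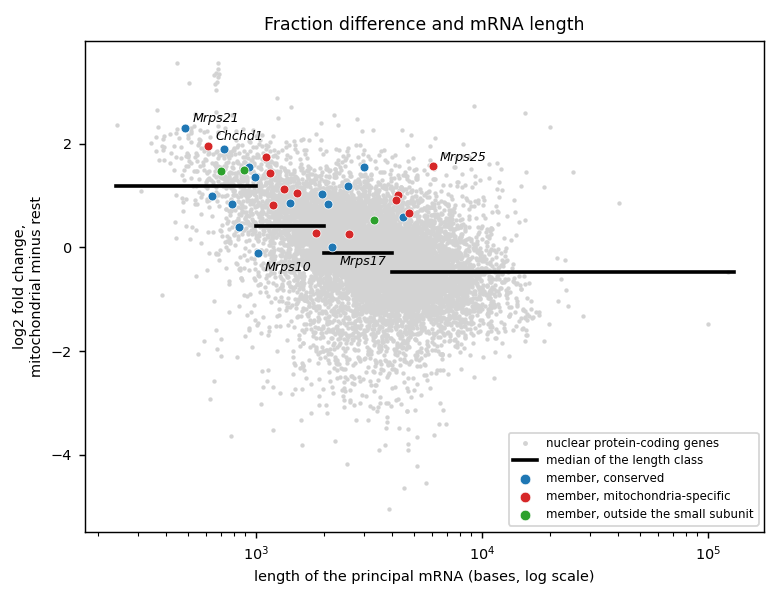
Log2 fold change, mitochondrial minus rest, against the length of the principal mRNA (log axis) for nuclear protein-coding genes (grey) and the 30 tested members (coloured by role), with the median of each length class as a black line. The medians fall from 1.17 to -0.47 with length, and 25 members lie above the line of their class. Scaling to the library total turns the median of the members to -2.88.

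The table lists 5 processed copies of Mrps21, Mrps33, Mrps36 and Mrps5, and all passed the filter. Gm6181, Gm5776 and both copies of Mrps36 had under 10 normalized counts in both rest libraries and passed only through the mitochondrial libraries, where they were high. Gm6181, the copy of Mrps21, had mitochondrial values of 35 and 31 normalized counts and 5 in both rest libraries, and was called higher with 2.50 (SE 0.391, adjusted p = 0.0498). Gm5776, the copy of Mrps33, had 27 and 38 against 7 and 8, with 1.96 (adjusted p = 0.0625). Mrps36-ps1 had 39 and 20 against 8 and 5, with 1.98 (adjusted p = 0.0911). Mrps36-ps2 had 35 and 10 against 8 and 6, with 1.33 (adjusted p = 0.272), and Gm13328, the copy of Mrps5, had 27 and 8 against 7 and 10, with 0.76 (adjusted p = 0.494). The groups overlapped in Gm13328 and were apart in the other 4 copies. Reads over stretches without a differing base fit parent and copy equally, and the authors excluded reads that aligned to several regions. The counts of a pair are therefore uncertain, and adding the copies does not restore excluded reads. With the copies added, the log2 difference was 2.38 for Mrps21, 1.86 for Mrps33, 1.58 for Mrps36 with both its copies and 0.67 for Mrps5. All stretches of 75 bases in the principal mRNA were searched in other annotated genes on either strand. A match was found for 73.0% in Mrps25, 60.5% in Mrps18b, 30.1% in Mrps6 and 25.2% in Mrps36, while Chchd1, Aurkaip1, Mrps15 and 13 other members had none. All 4376 matching stretches of Mrps25 lay in Nr2c2 on the opposite strand, and 505 of 608 in Mrps18b in an antisense gene.

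Factors for ribosome assembly and the modification of mitochondrial RNAs were compared as a list of 15 genes, of which 14 were tested. Not all of them are specific to the small subunit, so the values describe this mixed list. None was called by limma in either direction, and the median was 0.14. Of all genes tested, 2.16% were called higher and 1.39% lower, and 0 calls in a list this short lie near these shares. At an unadjusted p under 0.05, 1 factor was higher and 0 lower, against 14.1% and 16.2% of all genes. Rbfa, a ribosome binding factor that acts on the maturing small subunit, was the highest, with 43 and 43 against 26 and 21, and 0.85 did not pass (SE 0.288, adjusted p = 0.138). Mitochondrial translation factors had a median of 0.09 over the 13 genes listed, with 0 called by limma and 1 gene in each direction at an unadjusted p under 0.05. These counts stand beside the same shares of all genes. Median mRNA lengths were 2151 bases for the assembly list and 2623 for the translation factors, against 1375 for the members. The part of length in these contrasts was not tested. Tufm, the elongation factor that brings tRNA to the ribosome, had 345 and 227 against 180 and 157, with 0.73 (adjusted p = 0.153). Guf1, a GTPase related to bacterial LepA, had 46 and 48 against 72 and 87, with -0.74 (adjusted p = 0.126).

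The mRNAs of the mitochondrial large subunit, the partner particle, gave values near those of the small subunit. All 48 were tested, with a median of 0.99. Limma called 4 higher (Mrpl30 by 1.94, Mrpl42 by 1.83, Mrpl54 by 1.68 and Mrpl18 by 1.61) and 0 lower. Of all genes tested, 2.16% were called higher and 1.39% lower. At an unadjusted p under 0.05, 31 were higher and 0 lower, against 14.1% and 16.2% of all genes. Of the cytosolic small subunit mRNAs, which had a median length of 761 bases, 17 of 31 were called higher, with a median of 1.45, led by Rps29 with 2.08. Among nuclear protein-coding genes with mRNAs up to 1000 bases, 20.5% were called higher. Under scaling to the library total all fold changes of both lists were below 0, with medians of -2.93 for the large subunit and -2.50 for the cytosolic small subunit. The 12S rRNA itself, mt-Rnr1, had mitochondrial values of 41369911 and 17673302 normalized counts against 1095952 and 1774070 in the rest fraction. Both mitochondrial values were far above the rest values, and the fold change of 4.28 did not pass the limma test (SE 2.72, adjusted p = 0.344). This SE includes the mean-variance trend that limma fits across genes, here near its upper end. It is therefore not the replicate spread of mt-Rnr1 alone. As a share of the library total, mt-Rnr1 took 22.6% and 21.6% in the mitochondrial fraction and 15.8% and 20.7% in the rest fraction, a ratio of means of 1.21.

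Markers of the cells in the heart also differed between the fractions, and in bulk samples fewer cells of a type and less RNA per cell cannot be told apart. Nor can either be told apart here from the partition of RNA between the fractions or from the RNase A step. Of 8 cardiomyocyte markers, which were present in all libraries, 1 (Myl3) was called higher, with a median of 1.23 and summed levels of 215901 to 290431 in the mitochondrial and 211067 to 240580 in the rest libraries. Within this list Ryr2 (-1.35) and Myh6 (-0.20) had negative values, neither past the test. The 6 fibroblast markers had a median of 0.97 (sums of 3550 to 8382 against 2236 to 3180) and the 6 macrophage markers 0.89 (373 to 898 against 256 to 347). The 6 endothelial markers had a median of -0.92 (1341 to 1499 against 2369 to 2678), 5 smooth muscle and pericyte markers -0.89 (1624 to 1701 against 2648 to 3165, with Myh11 called lower, but Pdgfrb at 0.51 and Cspg4 at 0.20), and 5 erythroid markers -2.09 (50 to 341 against 440 to 824, with Alas2 at 0 in mitochondrial replicate 1). The 4 nuclear RNAs listed, among them Malat1, had a median of -2.11 (8745 to 13656 against 42966 to 45512). Under scaling to the library total all these medians were below 0. Their part in the values of the small subunit mRNAs was not tested.

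**Figure D5:**
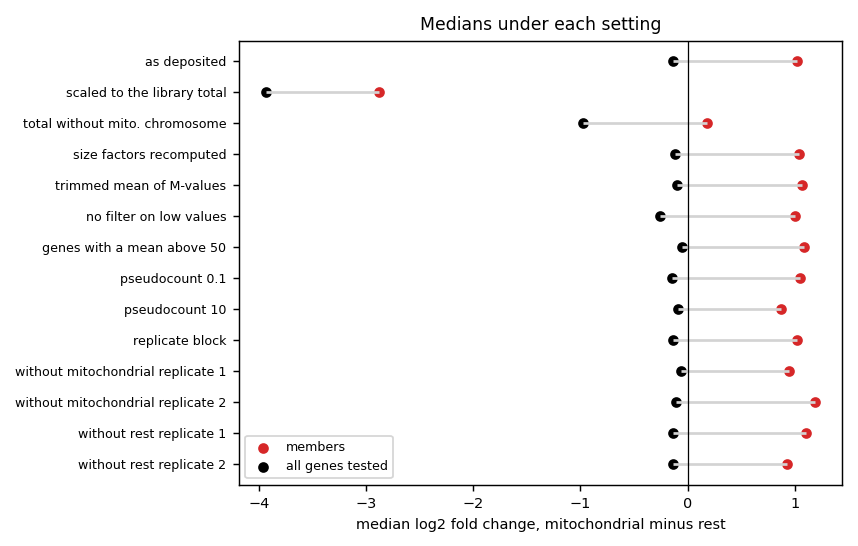
Median log2 fold change, mitochondrial minus rest, of the tested members (red) and of all genes tested (black) under the deposited scaling and each alternative. The members lie to the right of all genes in every row, while scaling to the library total moves both below 0 (-2.88 and -3.93).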

How the data were processed

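Total RNA was sequenced from 2 mitochondrial and 2 rest fraction libraries of adult mouse hearts, grouped by the labels. The submitters' processing notes name Trimmomatic 0.39, STAR 2.7.10a, featureCounts 2.0.2 and DESeq2 1.30.1. The authors aligned single-end reads to GRCm38, counted those on exons and excluded reads on several genes or regions. Each deposited value is a whole-number score made by the authors: the count of a gene divided by the size factor of its library, rounded. Because 1 read counts for less than 1 unit in both rest libraries, whole reads could not be restored, and no count test was run. The use of strand in counting and any filter on low genes are not given in the sources used here.

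Fractions were compared in limma 3.58.1 (R 4.3.3) with a mean-variance trend on log2(normalized count + 1), two-sided, for the 12150 genes that reached 10 normalized counts in 2 or more libraries, after a test on simulated data. Fold changes are on this scale, which understates changes of low genes. P-values were adjusted by Benjamini-Hochberg over these genes, with calls under 0.05. Approximate reads came from the spacing of values in each library. Lengths, overlaps and sequences came from GENCODE M21, where 32 of 32 members had the same coordinates, and copies were searched with blastn 2.17.0 (at least 95% identity over 75 bases) and pandas 2.3.3. Figures were drawn with matplotlib 3.10.9.

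Members and lists were chosen with earlier results of these data known. All members are accounted for. Those described with values for each library were the called members, the 6 largest and 6 most negative fold changes, the Mrps18 paralogs, the members working elsewhere, the members without an Mrps name, the 3 highest and 3 lowest per kilobase in the rest fraction, and the untested members. Nr2c2 and the copies were named for their overlap or sequence, and Mrps14, Rbfa, Tufm, Guf1 and single markers were chosen after their values were seen. Libraries with the same replicate number deviated together with r = 0.130 over 12150 genes, but the labels tie only the number, so the replicate number was used in an alternative alone. Other alternatives were other scalings, filters and pseudocounts, and each library left out in turn.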

Additional observations from a re-analysis of the deposited data

How the results depend on the processing

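The median log2 fold change of the members stayed from 0.87 to 1.09 under size factors recomputed, the trimmed mean of M-values (TMM), other filters, pseudocounts of 0.1 and 10 and the replicate block, and 0 members were called lower there by limma. The count called higher, with the share of all genes tested in brackets, was 5 as deposited (2.16%) and 7 with size factors recomputed (3.24%). It was 9 with TMM (3.91%), 9 with a pseudocount of 10 (4.41%) and 12 of 20 among genes with a mean above 50 (14.2%). With a pseudocount of 0.1 limma called 0 members and 0 of 12150 genes. There 19 members had an unadjusted p under 0.05, beside 1694 of all genes higher and 1754 lower. With the replicate block 8 members were called higher, the 5 called as deposited among them, against 3.87% of all genes. With each library left out in turn, a fraction keeps 1 library that is assumed to vary like the other fraction. The median of the members was then 0.93 to 1.19, beside -0.14 to -0.06 for all genes tested.

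Over all genes the calls higher and lower were 262 and 169 as deposited, 394 and 255 with size factors recomputed, 475 and 295 with TMM, 279 and 630 without a filter, 790 and 670 for a mean above 50, 536 and 580 with a pseudocount of 10, 470 and 309 with the replicate block, 129 and 3819 for totals without the mitochondrial chromosome and 2 and 12022 for library totals. The share of calls that were higher was 60.8% as deposited, 30.7% without a filter, 48.0% with a pseudocount of 10, 3.27% for totals without the mitochondrial chromosome and 0.0166% for library totals.

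Scaling to the library total called 0 members higher and 29 lower and turned the median to -2.88, beside -3.93 for all genes. It placed 0 of 30 members above 0, and among the tested members chosen by the naming rule it reversed Aurkaip1 (-2.52), Chchd1 (-1.94), Dap3 (-3.28), Mrps12 (-1.58), Mrps15 (-2.38), Mrps17 (-3.85), Mrps18a (-2.44), Mrps18c (-2.59), Mrps21 (-1.61), Mrps25 (-2.37), Mrps27 (-3.60), Mrps30 (-3.40), Mrps33 (-2.14), Mrps36 (-2.46), Mrps6 (-3.40), Mrps9 (-3.09) and Ptcd3 (-3.70). Scaling to the total without the mitochondrial chromosome called 2 members higher, moved the median to 0.18, left 20 of 30 members above 0 and reversed, among the same members, Dap3 (-0.19), Mrps17 (-0.83), Mrps27 (-0.57), Mrps30 (-0.33), Mrps6 (-0.45) and Ptcd3 (-0.60), while Mrps5 (-0.26), Mrps22 (-0.040) and Mrps2 (-0.010) turned as well. Under that scaling 15.4% of all genes tested were above 0 and 1.06% were called higher. The cause of these shifts of the members was not tested. Leaving out mitochondrial replicate 1 reversed Mrps17 (-0.22) and Ptcd3 (-0.0077), leaving out mitochondrial replicate 2 reversed Mrps10 (0.18), and leaving out rest replicate 2 reversed Mrps17 (-0.018). Over all libraries left out in turn, Mrps10 ranged from -0.39 to 0.18, Mrps17 from -0.22 to 0.25 and Ptcd3 from -0.0077 to 0.53. Depth limits the mitochondrial values most, where the lowest tested member rested on approximately 3 reads.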

Other observations

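Replicates of the tested members lay further apart in the mitochondrial fraction. The median absolute log2 ratio of replicate 1 to replicate 2 was 0.48 for the mitochondrial pair and 0.16 for the rest pair, beside 0.52 and 0.23 over all genes tested. Mitochondrial replicate 1 was the higher one for 20 members and replicate 2 for 10, and 2 members differed over 2-fold between the mitochondrial replicates.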
